A study of Mus musculus with 16 samples.

Results

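Reads on 9 genes that mark T, B and NK cells were followed in the left ventricles of PKM2fl/fl and PKM2-/- mice. The 9 genes are *Cd3e*, *Cd3d*, *Cd3g*, *Cd4*, *Cd8a*, *Cd79a*, *Ms4a1*, *Ncr1* and *Nkg7*. They were taken by symbol from a table of 55492 genes, and each has 1 row there. The hearts came from C57BL/6 male mice aged 8 to 12 weeks. PKM2fl/fl mice carry loxP sites around exon 10 of *Pkm*, the exon of the PKM2 isoform of pyruvate kinase, and served as controls. PKM2-/- mice lack that exon in every tissue, leukocytes included, after a cross to mice with Cre under a CMV promoter, and the Cre allele was then bred out. In each genotype there were 2 hearts at baseline without surgery, 3 hearts taken 3 days after sham surgery and 3 taken 3 days after myocardial infarction (MI) by ligation of the left anterior descending artery. Each of the 16 libraries is a different mouse. The frozen ventricle was pulverized before extraction, and the labels do not say how much of each sample was infarct.

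T cells recognize antigen through a receptor that cannot signal without the CD3 proteins, which *Cd3e*, *Cd3d* and *Cd3g* encode. The coreceptors CD4 and CD8 bind the MHC proteins that present the antigen. CD4 is found on helper and regulatory T cells and CD8 on cytotoxic T cells, although some myeloid and dendritic cells also make one or the other. B cells signal through CD79a, the partner of membrane immunoglobulin, and *Ms4a1* encodes their surface protein CD20. *Ncr1* encodes NKp46, an activating receptor of NK cells and related innate lymphocytes, and *Nkg7* encodes a protein of cytotoxic granules in NK and T cells. In an infarcted heart, neutrophils and then monocytes and macrophages make up most of the early infiltrate, and lymphocytes are a smaller part of it. In whole tissue, fewer cells of a type and less RNA per cell cannot be told apart.

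The 3 CD3 genes are neighbours on mouse chromosome 9 (mm10). *Cd3g* runs from 44969572 to 44980431 on the reverse strand and *Cd3d* from 44981769 to 44987052 on the forward strand, so that their starts are 1338 bases apart. *Cd3e* follows on the reverse strand from 44998735 to 45009663. *Cd8a* (71373427 to 71379171, forward) and *Cd4* (124864693 to 124888247, reverse) are both on chromosome 6. Chromosome 7 holds *Ncr1* (4337715 to 4345184), *Cd79a* (24897497 to 24901858) and *Nkg7* (43437138 to 43438246), all on the forward strand. *Ms4a1* is on the reverse strand of chromosome 19, from 11249679 to 11266149. Of the 9 genes, 1 shares exon sequence with another gene, *Cd3e*, for 135 bases with *Gm48719* on the opposite strand. The library kit is not described as keeping strand, so reads from those 135 bases could belong to either gene.

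The libraries held 20623769 to 71855101 reads on genes. *Pkm*, counted as a whole gene with both isoforms, had 7779 to 12076 normalized counts in PKM2fl/fl and 10120 to 16113 in PKM2-/- hearts, which does not test the loss of exon 10. Defining genes of the tissue were plentiful, with *Myh6*, the main myosin heavy chain of adult cardiomyocytes, at a mean of 42517 normalized counts per kb of transcript and *Ptprc*, which encodes the CD45 protein of all leukocytes, at 342 per kb.

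Few reads fell on the 9 genes. Over the 16 libraries they took 1341 reads in all, or 2.22 of every 1000000 reads, and the 3 CD3 genes took 189 of those. The highest value of any of them in a library was 45 reads, for *Cd4*. Of the 144 values of a gene in a library, 11 were 0 reads and 38 (26.4%) were 3 reads or fewer, the limit that a count of 0 allows. That limit corresponds to 1.47 to 5.50 normalized counts, depending on the library. *Cd4*, *Cd8a*, *Cd79a* and *Ms4a1* were read in all 16 libraries, and the other 5 were missing from at least 1. *Cd4* (8 to 45 reads) and *Ms4a1* (4 to 34) were above 3 reads in every library and *Cd79a* in all but 1, while *Cd3d* was at 3 reads or fewer in 10 of the 16 and *Cd3g* in 9.

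The number of molecules behind these reads may be smaller than the number of reads. Sequencing was paired-end, and 108 of the 133 values above 0 (81.2%) were even numbers. Across the whole table, 63.2% to 71.1% of genes with 1 to 10 reads in a library had an even number, and more genes had 2 reads than 1 in each of the 16 libraries. Counting both ends of a fragment gives such numbers, so that a value of 2 reads may be 1 molecule. Limits given in reads cover counting error only and treat reads as independent.

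Per kb of transcript, which allows levels of different genes to be compared, *Cd79a* was the highest at a mean of 12.3 ± 5.5 normalized counts per kb (SD, n = 16 libraries). It was followed by *Cd4* at 6.15, *Nkg7* at 5.21, *Ms4a1* at 4.39, *Ncr1* at 3.84, *Cd3e* at 3.47, *Cd3g* at 2.99, *Cd8a* at 1.91 and *Cd3d* at 1.41. *Cd79a* exceeded *Cd4* in 13 of 16 libraries, by 6.20 ± 5.23 per kb (mean and SD of the difference within a library). No other neighbours in this order differed by more than the SD of their difference, and *Ncr1* exceeded *Cd3e* in 7 of the 16 libraries. The order was not the same in every group: *Nkg7* averaged 1.50 per kb in PKM2fl/fl hearts at baseline, below *Cd3e* at 3.24, and *Ncr1* averaged 8.61 per kb in PKM2fl/fl hearts after MI, below *Cd79a* alone.

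**Figure D1:**
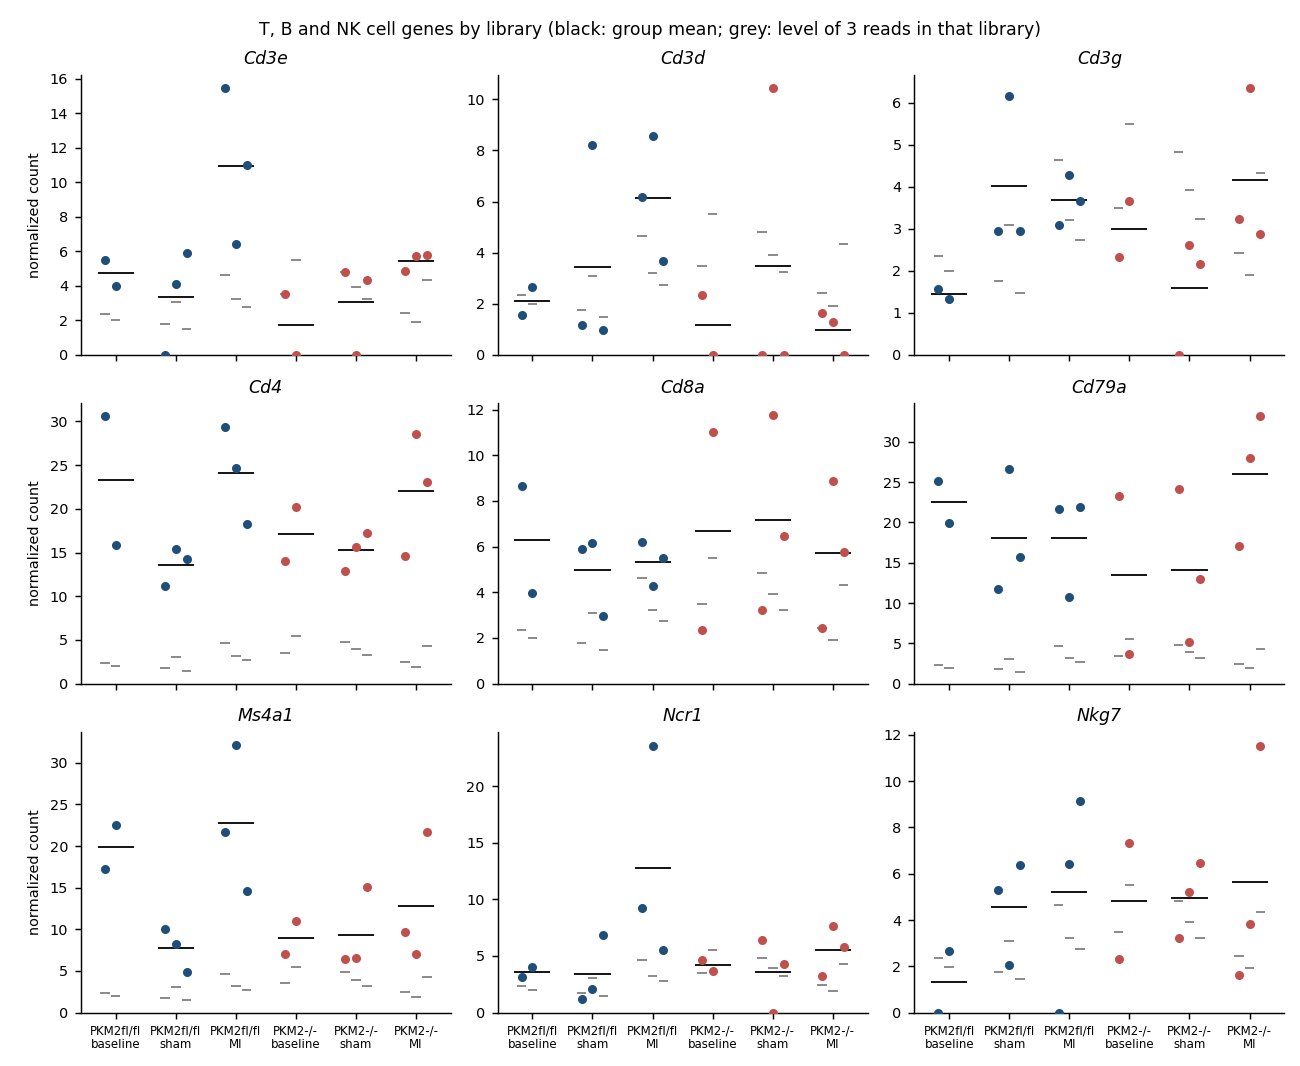
Normalized counts (vertical axes, linear, each panel on its own scale) of the 9 genes in the 6 groups of genotype and treatment. Points are libraries, black lines are group means and grey ticks are the level that 3 reads would give in that library; *Ms4a1* in PKM2fl/fl hearts is the gene whose 3 MI points (14.6 to 32.1) lie farthest above its sham points (4.90 to 9.99), whereas many points of the CD3 genes and *Nkg7* lie on or under the grey ticks.

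The comparison of MI with sham asks what the infarct does to each gene, and it was made within each genotype. In PKM2fl/fl hearts *Ms4a1* rose after MI and was the 1 of the 9 genes that was called, where a call required a change of 2-fold or more with an adjusted p under 0.05. Over all 25001 genes tested, 21% were called in either direction and 11.2% were called higher. An unadjusted p under 0.05 was reached by 4 of the 9 genes (*Cd3e*, *Cd4*, *Ms4a1* and *Ncr1*) and by 48.6% of all genes. Without PKM2, 0 of the 9 genes were called by limma, beside 26.5% of all genes, and 0 had an unadjusted p under 0.05, beside 54.2% of all genes. DESeq2 and edgeR also called 0 there. Of all genes, 13.7% were called higher there. Whether the counts among the 9 genes differ from these shares was not tested, and the 9 genes had few reads.

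*Ms4a1* had 9.99, 8.21 and 4.90 normalized counts in the PKM2fl/fl sham hearts and 21.6, 32.1 and 14.6 after MI. Every MI heart was above every sham heart, and the means were 7.70 ± 2.58 and 22.8 ± 8.8 (SD, n = 3 each). The difference was 1.43 on the scale of log2(normalized count + 1), with a 95% interval of 0.40 to 2.46 and an adjusted p of 0.0257 (limma). On the recovered reads, the difference was 1.55 with an adjusted p of 0.0198 from edgeR and 1.58 with 0.0109 from DESeq2. At baseline, the 2 PKM2fl/fl hearts had 17.3 and 22.6 normalized counts, within the range after MI. The sham hearts were thus the low group of the genotype, and *Ms4a1* was lower after sham than at baseline by 1.30 (interval -2.45 to -0.15, unadjusted p = 0.0294, adjusted p = 0.551, limma). These 2 comparisons share the sham hearts.

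The call for *Ms4a1* rested on few libraries. Without PKM2fl/fl sham replicate 3 the adjusted p was 0.106, without MI replicate 1 it was 0.0549 and without MI replicate 2 it was 0.103 (limma). With libraries scaled to their total reads it was 0.104, and with no filter on low values it was 0.0608. The difference stayed positive in these fits, from 1.16 to 1.43.

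In the PKM2-/- groups, *Ms4a1* had 6.43, 6.53 and 15.1 normalized counts after sham and 9.73, 6.99 and 21.6 after MI. The groups overlapped, and 1 heart in each was well above its 2 companions. The difference was 0.37 (interval -0.66 to 1.40). The difference between genotypes in the response to MI was -1.06 (interval -2.52 to 0.39, adjusted p = 0.751, limma), so the test did not separate the genotypes.

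*Cd79a*, the signalling partner of the B cell receptor, did not follow *Ms4a1* in PKM2fl/fl hearts. It had 11.8, 26.7 and 15.7 normalized counts after sham and 21.6, 10.7 and 21.9 after MI. The groups covered nearly the same range, and the difference was 0.02 (interval -1.25 to 1.29). Its PKM2-/- values were 24.1, 5.22 and 12.9 after sham and 17.0, 27.9 and 33.2 after MI. There 2 of the 3 MI hearts were above all sham hearts, and the difference was 1.01 (interval -0.26 to 2.28, adjusted p = 0.179, limma). With total-read scaling, which moves the median of all genes in this comparison to 0.52, the difference of *Cd79a* was 1.49 and was called (adjusted p = 0.029, limma).

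The T cell receptor genes gave differing values although they encode parts of 1 complex. *Cd3e* had 0, 4.11 and 5.88 normalized counts in PKM2fl/fl sham hearts and 15.5, 6.43 and 11.0 after MI. All MI hearts were above all sham hearts, by 1.79 on the log2 scale (interval 0.04 to 3.55, and 0.94 without sham replicate 1 to 2.33 without sham replicate 3), but the adjusted p was 0.0953 (limma) and the gene was not called, except by limma-voom on the recovered reads. The PKM2-/- hearts had 4.82, 0 and 4.32 after sham and 4.86, 5.72 and 5.77 after MI. The groups did not overlap there either, and the difference was 1.04 (interval -0.72 to 2.79, adjusted p = 0.324, limma).

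*Cd3d* rested on 48 reads over all libraries. It had 1.18, 8.21 and 0.980 normalized counts in PKM2fl/fl sham hearts and 6.18, 8.57 and 3.66 after MI. A single sham heart was as high as the MI hearts, and the difference was 1.00 (interval -0.98 to 2.99). Its counts in PKM2-/- hearts were 0, 10.4 and 0 after sham and 1.62, 1.27 and 0 after MI. All but 1 of these 6 libraries were at 2 reads or fewer, and the difference was -0.31 (interval -2.30 to 1.67).

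*Cd3g* had 2.94, 6.16 and 2.94 normalized counts in PKM2fl/fl sham hearts and 3.09, 4.29 and 3.66 after MI. The MI values lay within the sham range, and the difference was -0.05 (interval -1.31 to 1.22). The corresponding PKM2-/- counts were 0, 2.61 and 2.16 after sham and 3.24, 6.35 and 2.89 after MI. There the MI hearts were all higher, with a difference of 1.14 (interval -0.13 to 2.40, adjusted p = 0.13, limma).

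Summed over the 3 CD3 genes, PKM2fl/fl hearts had 10.8 ± 7.2 normalized counts after sham and 20.8 ± 3.5 after MI (SD, n = 3 each). PKM2-/- hearts had 8.12 ± 4.36 after sham and 10.6 ± 2.5 after MI. At baseline the 2 hearts of each genotype averaged 8.30 and 5.91. These sums are descriptions of 9 to 54 reads per group and were not tested.

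Among the coreceptors, *Cd4* had the most reads of the T cell genes. It had 11.2, 15.4 and 14.2 normalized counts in PKM2fl/fl sham hearts and 29.4, 24.6 and 18.3 after MI. The groups did not overlap, with a difference of 0.77 (interval 0.00 to 1.54, adjusted p = 0.102, limma), under the 2-fold threshold. Baseline hearts had 30.6 and 15.9, which spans the MI range. With PKM2 deleted, *Cd4* had 12.9, 15.7 and 17.3 after sham and 14.6, 28.6 and 23.1 after MI, a difference of 0.47 (interval -0.30 to 1.23).

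*Cd8a* had 5.88, 6.16 and 2.94 normalized counts in PKM2fl/fl sham hearts and 6.18, 4.29 and 5.49 after MI. Without PKM2 it had 3.22, 11.8 and 6.47 after sham and 2.43, 8.89 and 5.77 after MI. The groups overlapped in both genotypes, and the differences were 0.11 (interval -1.18 to 1.41) and -0.27 (interval -1.57 to 1.03). The intervals hold a doubling as well as a halving, so neither was detectable at this depth.

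Of the NK cell genes, *Ncr1* had 1.18, 2.05 and 6.86 normalized counts in PKM2fl/fl sham hearts and 9.27, 23.6 and 5.49 after MI. The lowest MI heart was below the highest sham heart, and the difference was 1.66 (interval 0.07 to 3.25, adjusted p = 0.0893, limma). Without PKM2fl/fl sham replicate 3, *Ncr1* was called with a difference of 2.19. The PKM2-/- groups had 6.43, 0 and 4.32 after sham and 3.24, 7.62 and 5.77 after MI, a difference of 0.88 (interval -0.71 to 2.47).

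*Nkg7* had 5.29, 2.05 and 6.37 normalized counts in PKM2fl/fl sham hearts and 0, 6.43 and 9.15 after MI. Counts in the PKM2-/- groups were 3.22, 5.22 and 6.47 after sham and 1.62, 3.81 and 11.5 after MI. Both MI groups ran from below to above their sham group. The differences were -0.30 (interval -2.13 to 1.53) and -0.10 (interval -1.94 to 1.73).

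**Figure D2:**
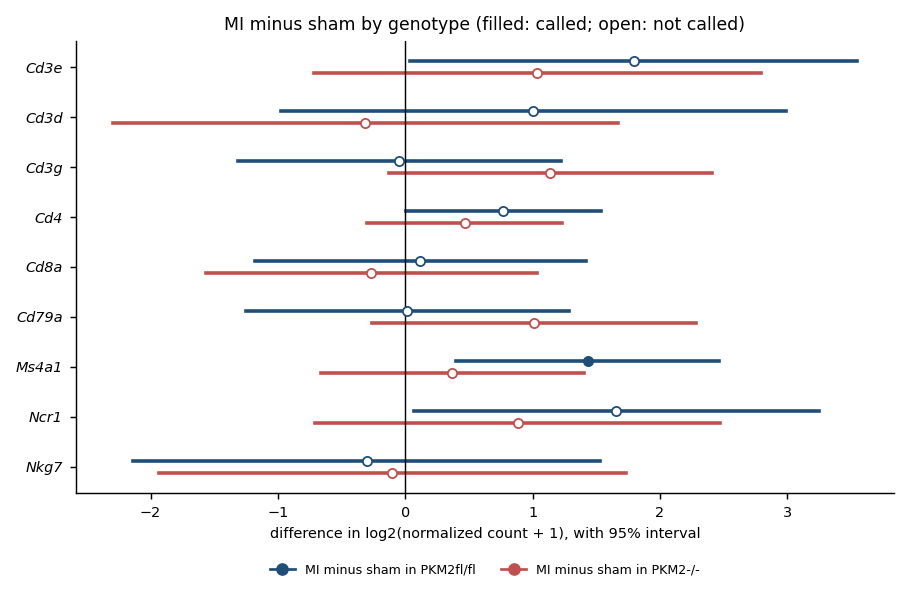
Difference between MI and sham hearts in log2(normalized count + 1) (horizontal axis) for each of the 9 genes, with its 95% interval from the limma fit, in PKM2fl/fl (blue) and PKM2-/- (red) hearts. The filled point, *Ms4a1* in PKM2fl/fl hearts at 1.43, is the 1 call, and most other intervals span 0.

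Taken as a list, 7 of the 9 genes had a difference above 0 after MI in PKM2fl/fl hearts, with a median of 0.77 on the log2 scale against 0.01 over all genes tested. In PKM2-/- hearts 6 of 9 were above 0, with a median of 0.47 against 0.03. *Cd3e*, *Cd4* and *Ms4a1* separated all MI from all sham hearts in PKM2fl/fl mice, and *Cd3e* and *Cd3g* did so in PKM2-/- mice. Of all genes, 52.7% and 55.7% separated these groups in either direction.

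Beside *Ptprc*, the 9 genes were lowest after MI. *Ptprc* had 598 to 1245 normalized counts in PKM2fl/fl sham hearts and 2803 to 4137 after MI, and rose by 1.88 on the log2 scale (adjusted p = 6.04e-06, limma). The PKM2-/- hearts had 735 to 914 after sham and 3020 to 3938 after MI, a rise of 2.09 (adjusted p = 1.35e-06, limma). Per 1000 normalized counts of *Ptprc*, the 9 genes summed to 162 and 199 in PKM2fl/fl hearts at baseline, 53.0 to 102 after sham and 22.5 to 40.8 after MI. For PKM2-/- mice the sums were 109 and 144 at baseline, 62.9 to 94.0 after sham and 19.3 to 28.0 after MI. In both genotypes the 3 treatments did not overlap in this ratio, and MI was the lowest. *Ptprc* alone also separated the 3 treatments, with 469 and 475 normalized counts in PKM2fl/fl and 565 and 420 in PKM2-/- hearts at baseline. A gene whose level did not change would thus also give a falling ratio, so the order does not show a trait of the 9 genes. The ratio compares 2 quantities within a library and does not give the level of either. The sum of the 9 genes itself averaged 85.2 normalized counts at baseline, 63.1 after sham and 109 after MI in PKM2fl/fl hearts, and 61.1, 62.5 and 88.4 in PKM2-/- hearts.

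**Figure D3:**
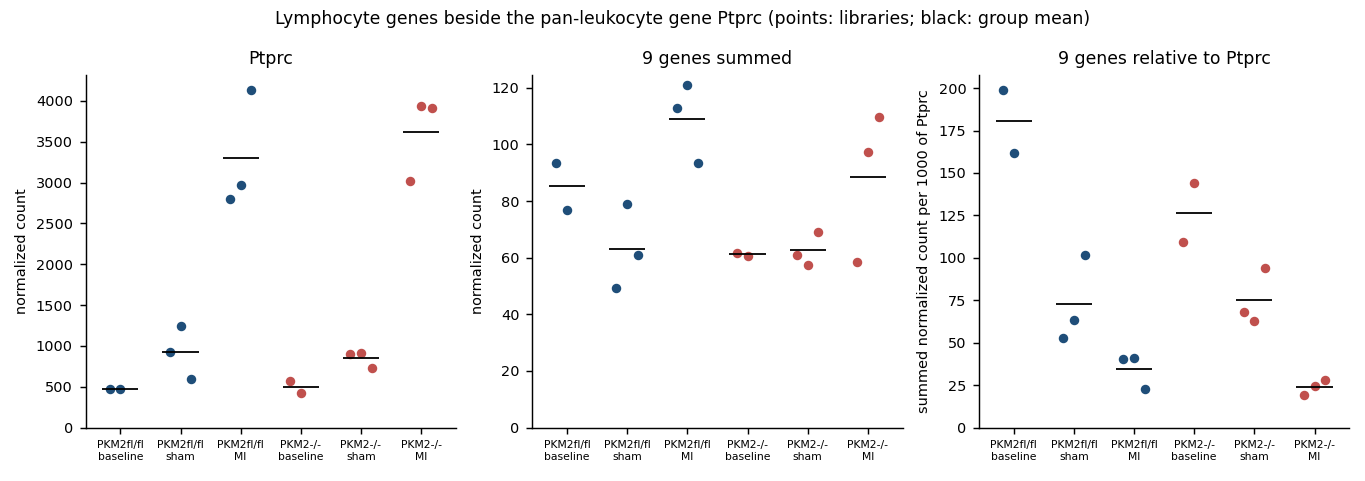
*Ptprc* (left), the 9 genes summed (middle) and the 9 genes per 1000 normalized counts of *Ptprc* (right), all on linear axes from 0, by genotype and treatment. Points are libraries and black lines are group means; the *Ptprc* level is 2803 or more in every MI heart, while the ratio is 40.8 or less in each of them.

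The genotypes were compared within each treatment to ask what the loss of PKM2 does to each gene. After MI, 0 of the 9 genes were called between PKM2-/- and PKM2fl/fl hearts, 0 had an unadjusted p under 0.05 (limma), and DESeq2 and edgeR called 0. Over all 25001 genes 0.284% were called, and 3773 had an unadjusted p under 0.05 (limma). The difference of largest size was that of *Cd3d*, with 6.18, 8.57 and 3.66 normalized counts in PKM2fl/fl and 1.62, 1.27 and 0 in PKM2-/- hearts. All PKM2-/- hearts were lower, with a difference of -1.92 on the log2 scale (interval -3.90 to 0.07, adjusted p = 0.348, limma), but the PKM2-/- values were 2 reads, 2 reads and 0.

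*Cd3e* also separated the genotypes after MI, at 15.5, 6.43 and 11.0 in PKM2fl/fl and 4.86, 5.72 and 5.77 in PKM2-/- hearts (difference -0.82, interval -2.57 to 0.93). These 2 groups were separated by 17.6% of all genes. The third CD3 gene, *Cd3g*, overlapped and differed by 0.09 (interval -1.18 to 1.36). *Ms4a1* differed by -0.87 (interval -1.90 to 0.17) and *Ncr1* by -0.91 (interval -2.50 to 0.68), with overlapping groups. For *Cd4*, *Cd8a*, *Cd79a* and *Nkg7* the differences were -0.15, -0.03, 0.52 and 0.36.

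After sham, 0 of the 9 genes were called between genotypes (limma, beside 0.004% of all genes), and 0 by DESeq2 or edgeR. An unadjusted p under 0.05 was found for 0 of the 9, beside 2278 of all 25001 genes (limma). The differences ran from -1.09 for *Cd3g* to 0.35 for *Cd8a*. *Cd3g* was the gene whose groups did not overlap, lower in PKM2-/- hearts, a separation that 15.5% of all genes had. Its interval was -2.36 to 0.17.

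At baseline, with 2 hearts per genotype, 0 of the 9 genes were called (limma, beside 0.008% of all genes), and 0 by DESeq2 or edgeR. An unadjusted p under 0.05 was found for 0 of the 9, beside 965 of all 25001 genes (limma). *Ms4a1* had 17.3 and 22.6 normalized counts in PKM2fl/fl and 6.99 and 11.0 in PKM2-/- hearts, a difference of -1.08 (interval -2.35 to 0.18). *Cd3e* was also lower in both PKM2-/- hearts, at 3.50 and 0 against 5.49 and 3.98, with a difference of -1.42 (interval -3.57 to 0.72), which ran from -2.51 without PKM2-/- replicate 1 to -0.34 without PKM2-/- replicate 2. *Nkg7* had a difference of 1.46 (interval -0.78 to 3.71), which was 0.53 without PKM2fl/fl replicate 1 and 2.40 without PKM2fl/fl replicate 2, and *Cd79a* one of -1.13 (interval -2.69 to 0.42). *Cd3g* was higher in both, at 2.33 and 3.67 against 1.57 and 1.33, on 2 reads in each of these 4 libraries. Of all genes, 34.3% separated the 2 baseline groups.

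The response to MI did not differ detectably between genotypes for any of the 9 genes. The interaction term called 0 of 9 (limma, 0 at an unadjusted p under 0.05, 0 by DESeq2 or edgeR), beside 0% of all genes, of which 1912 had an unadjusted p under 0.05, 35 were called by DESeq2 and 0 by edgeR. Its values ran from -1.32 for *Cd3d* (interval -4.12 to 1.49) to 1.18 for *Cd3g* (interval -0.61 to 2.98). The interval of each gene holds a 2-fold difference in at least 1 direction, so such differences were not detectable here.

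**Figure D4:**
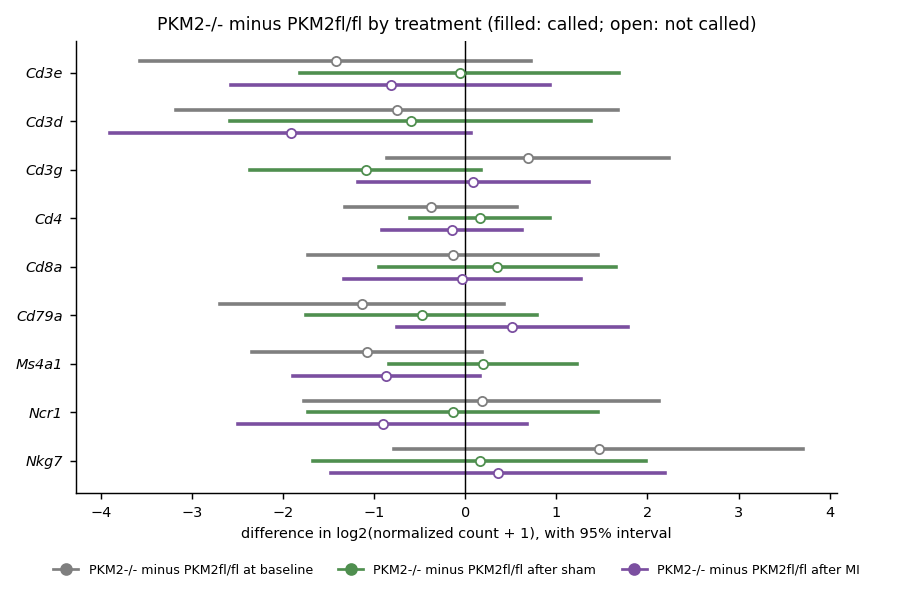
Difference between PKM2-/- and PKM2fl/fl hearts in log2(normalized count + 1) (horizontal axis) for each of the 9 genes at baseline (grey), after sham (green) and after MI (purple), with 95% intervals from the limma fit. All points are open, which marks 0 calls, and all 27 intervals include 0.

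Sham surgery against baseline asks about the operation itself. In PKM2fl/fl hearts 0 of 9 genes were called (limma, beside 0.136% of all genes), with 0 calls by DESeq2 or edgeR. *Ms4a1*, as given above, was the 1 gene of the 9 with an unadjusted p under 0.05, which 1921 of all 25001 genes had (limma). *Cd4* was also lower in all sham hearts (11.2 to 15.4) than at baseline (15.9 and 30.6), and *Cd3g* was higher in all of them. Of all genes, 30.7% separated these groups. *Nkg7* differed by 1.45 (interval -0.60 to 3.49), with groups that overlapped, and by 0.51 without baseline replicate 1 and 2.38 without baseline replicate 2. In PKM2-/- hearts 0 of 9 genes were called (limma, beside 2.27% of all genes), and 0 by DESeq2 or edgeR. An unadjusted p under 0.05 was found for 0 of the 9, beside 4338 of all 25001 genes (limma). The differences there ran from -0.81 for *Cd3g* to 0.57 for *Cd3e*, and the groups overlapped for all 9, whereas 32% of all genes separated them.

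Further genes of the same cell types were tested in the same way, and some of them had as few reads as the 9. Of 28 further T cell genes tested, 3 rose after MI in PKM2fl/fl hearts, 3 fell and 22 were not called, with a median of 0.32 on the log2 scale. The share that rose was close to the 11.2% of all genes called higher there. *Il7r*, which encodes the interleukin 7 receptor of T cells and innate lymphoid cells, had 21.6 to 24.7 normalized counts after sham and 211 to 275 after MI and rose (log2 difference 3.39, adjusted p = 7.0e-07, limma). *Trbc2*, a constant segment of the T cell receptor beta chain, which was named after its values were seen, rose by 2.13 (adjusted p = 0.0262, limma), with 0.980 to 8.21 normalized counts after sham and 10.7 to 22.9 after MI. In PKM2-/- hearts 5 of the 28 rose, *Il7r* (3.18) and *Trbc2* (1.93) among them, and 4 fell, including *Ctla4*, an inhibitory receptor of T cells (-3.25), beside 13.7% of all genes called higher and 26.5% called in either direction.

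Of 18 further B cell genes tested, 5 rose after MI in PKM2fl/fl hearts and 1 fell, with a median of 0.58, beside 11.2% of all genes called higher and 21% called in either direction. *Blnk*, an adaptor of B cell receptor signalling that macrophages also make, rose by 1.39, and *Cd22*, an inhibitory receptor of B cells, rose by 2.14 (adjusted p = 8.88e-05 and 0.00634, limma). *Fcrla* fell by 1.61. The PKM2-/- comparison had 8 that rose and 1, *Fcrla*, that fell, with a median of 1.17, beside 13.7% and 26.5% of all genes. *Pax5*, the transcription factor of B cell identity, had 18.3 to 38.6 normalized counts after sham and 68.1 to 121 after MI there (difference 1.79, adjusted p = 0.000136, limma), and *Pou2af1*, a coactivator in B cells, rose by 2.01. *Cd22* and *Pax5* share exon sequence with genes on the opposite strand.

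Of 14 further NK and cytotoxic genes tested, 3 rose after MI in PKM2fl/fl hearts and 0 fell, with a median of 0.58, and 8 rose in PKM2-/- hearts, with a median of 1.64. The shares of all genes called higher in these comparisons were 11.2% and 13.7%. *Cd244a*, a receptor of NK cells that is also found on monocytes, had 61.8 to 161 normalized counts after sham and 494 to 808 after MI in PKM2fl/fl hearts and rose (2.62, adjusted p = 4.94e-06, limma) and by 2.99 in PKM2-/- hearts. *Gzmk*, a granzyme, rose by 1.50 and 2.55, and *Klrd1*, which encodes CD94 of NK cell receptors, by 1.76 and 1.98. *Klrb1c*, the NK1.1 antigen, rose in PKM2-/- hearts by 1.97 and had a difference of 0.19 in PKM2fl/fl hearts (not called), and the interaction term for it was 1.79 with an adjusted p of 0.572 (limma). It shares 413 exon bases with *Gm44511* on the same strand, so its reads are uncertain. Between genotypes after MI, 0 of the 28, 18 and 14 genes of these lists were called (limma).

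Markers of other leukocytes moved in the same comparisons. Of 5 genes of all leukocytes, 5 rose after MI in each genotype, and of 11 macrophage and monocyte genes, 9 rose in PKM2fl/fl and 10 in PKM2-/- hearts. The summed level of the 11 genes was 6702 to 11794 normalized counts after sham and 24140 to 41376 after MI in PKM2fl/fl hearts. It was 8759 to 11062 after sham and 33054 to 37616 after MI in PKM2-/- hearts. Of 7 neutrophil genes tested, 3 rose in each genotype, and of 7 dendritic cell genes 2 rose in each and *Zbtb46* fell in PKM2-/- hearts. Among 6 cardiomyocyte genes, 5 fell in PKM2fl/fl and 6 in PKM2-/- hearts. Over all 25001 genes tested, 11.2% were called higher and 2447 lower in PKM2fl/fl hearts. In PKM2-/- hearts 13.7% were called higher and 3185 lower. The part of these cells in the values of *Cd4*, *Il7r*, *Blnk* or *Cd244a* was not tested.

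**Figure D5:**
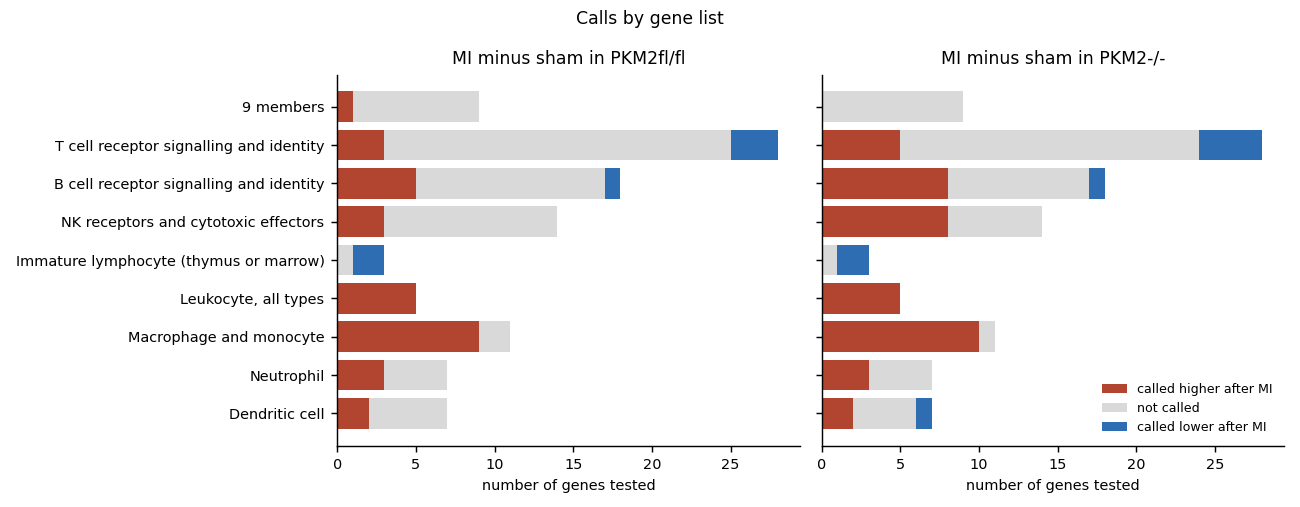
Number of genes tested in each list (horizontal axis) that were called higher (red), called lower (blue) or not called (grey) after MI against sham, in PKM2fl/fl (left) and PKM2-/- (right) hearts. The lists of all leukocytes and of macrophages and monocytes are red for 5 of 5 and for 9 or 10 of 11 genes, and the 9 genes described here have 1 red unit on the left and 0 on the right.

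Genes of lymphoid organs were also followed, but whether the samples held such tissue was not tested. Of 6 genes of immature lymphocytes of thymus or marrow, 3 passed the filter, 0 rose and 2, *Rag2* and *Arpp21*, fell after MI in both genotypes, and their summed level was 133 to 170 normalized counts after sham and 71.1 to 95.1 after MI in PKM2fl/fl hearts. Of the 25001 genes tested, 2447 and 3185 were called lower in PKM2fl/fl and PKM2-/- hearts. *Rag1*, which acts together with *Rag2* in lymphocyte precursors, was at 0 in 14 of 16 libraries. *Rag2* had 71.1 to 103 normalized counts in PKM2fl/fl sham hearts, so the summed level is not a measure of immature lymphocytes. Of the lymph node stroma genes 2 passed the filter, and *Cxcl13*, a chemokine that attracts B cells, rose in PKM2-/- hearts (0 to 3.22 normalized counts after sham, 6.49 to 89.4 after MI, difference 3.04, adjusted p = 0.0288, limma). Its PKM2fl/fl MI hearts had 12.4, 2.14 and 53.0, and the difference of 1.48 was not called. The other, *Ccl21a*, a chemokine of lymph node stroma, had differences of -0.67 and -1.16 in PKM2fl/fl and PKM2-/- hearts and was not called in either.

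Across the 16 libraries, the 9 genes correlated with each other from -0.41 (*Cd8a* with *Cd79a*) to 0.74 (*Cd3e* with *Cd79a*) on the log2 scale. Among the CD3 genes, Pearson r was 0.39 for *Cd3d* with *Cd3g*, 0.11 for *Cd3e* with *Cd3d* and 0.0031 for *Cd3e* with *Cd3g*. These are descriptions over 16 libraries that share groups and depth, from sparse counts. Of 20573 genes outside the 9, the pattern most like the mean of the CD3 genes was that of *Ctnnbl1* (r = 0.82), the most like that of the B cell genes was *Gm13919* (0.87) and the most like that of the NK genes was *Zbtb6* (0.81). None of the 5 genes nearest to each pattern was on the lists of lymphocyte genes.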

How the data were processed

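Left ventricular RNA of 16 mice was depleted of rRNA and sequenced paired-end. The authors aligned reads to mm10 with HISAT2, counted them with featureCounts and deposited for each gene and library a signal, namely reads normalized by DESeq2's size factor. Strand and multi-mapping settings are not given in the sources used here. The deposited table also holds the authors' mean signal, a log2 fold change with its standard error, a Wald score and a p-value for baseline genotypes, none of which was used. Columns left without a sample numbered 0.

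Division of each column by its smallest step gave whole reads for 100% of values (tolerance 0.01), from 20623769 to 71855101 reads per library. The main test, limma 3.58.1 (trend) in R 4.3.3, was fitted to log2(normalized count + 1) of all 16 libraries with 6 group means, keeping the 25001 genes whose mean was 3 or more. P-values were two-sided and adjusted by Benjamini-Hochberg over all of them, and a call needed a change of 2-fold or more besides an adjusted p under 0.05. Fold changes on this scale understate those of low genes. Alternatives were total-read and TMM scaling, 3 tools on recovered reads (limma-voom, edgeR 4.0.16 and DESeq2 1.42.0), a minimum mean of 10, no filter, a pseudocount of 0.5, the compared groups alone, the replicate number as a block, no fold threshold and each library left out. The test was also run on simulated counts, with the same spread beyond counting error for every gene and reads drawn independently. That run does not cover counts in which both ends of a fragment are counted.

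The members and lists were chosen with earlier results of these data known. Other genes named are the 3 of smallest p per list and comparison, defining markers and the 5 genes most like each lineage, and any others are marked as named after their values were seen. Positions are from RefSeq (GRCm38.p6, mm10). Transcript lengths and exon overlaps are from GENCODE M39 (GRCm39), which matched 89.8% of symbols. Protein sequences were not used here, and some genes of the lists are counted but not reported by name.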

Additional observations from a re-analysis of the deposited data

Results flagged for a closer look

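*Cd3d*, a subunit of the T cell receptor complex, had a difference between MI and sham of 1.00 on the log2 scale (interval -0.98 to 2.99) in PKM2fl/fl and of -0.31 (interval -2.30 to 1.67) in PKM2-/- hearts, and was called in neither (limma). It is listed because each of the 3 PKM2fl/fl MI hearts was above the mean of its sham group (6.18, 8.57 and 3.66 normalized counts against a mean of 3.46) and each of the 3 PKM2-/- MI hearts was below its own (1.62, 1.27 and 0 against 3.48). No PKM2-/- MI heart was below the 2 sham hearts at 0. The difference between the responses was -1.32 on the log2 scale, and the interaction term did not pass the threshold (adjusted p = 0.836, limma). The PKM2-/- sham mean comes from 1 heart with 8 reads, since the other 2 had 0, and without that heart (sham replicate 2) the MI difference in PKM2-/- hearts turned to 0.86 and the difference between the responses was -0.15. With each other library left out in turn it ran down to -2.04, the value without PKM2fl/fl sham replicate 2. A difference between the genotypes was thus not shown.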

How the results depend on the processing

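The number of the 9 genes called in MI against sham in PKM2fl/fl hearts was 1 and became 0 with total-read scaling or no filter, 2 with limma-voom (*Cd3e* added) and 0 to 1 with 1 library left out. Without sham replicate 3, the 1 call was *Ncr1* in place of *Ms4a1*. In PKM2-/- hearts it was 0 and became 1 with total-read scaling (*Cd79a*). The other 6 comparisons had 0 calls in every alternative run. Same-numbered libraries of different groups correlated from -0.20 to 0.13 in their deviations, which gave no sign of pairing by number. Deviations from a mean of few libraries constrain each other, so these values cannot decide whether libraries were paired. With the replicate block, 1 of the 9 genes was again called, *Ms4a1* with an adjusted p of 0.0375 (limma).

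Total-read scaling moved the median of all genes to -0.16 and 0.52 for MI against sham in PKM2fl/fl and PKM2-/- hearts, 0.67 for the interaction, and 0.35, -0.33 and -0.59 between genotypes after MI, after sham and at baseline. Of 343 values of single members under alternatives, 16 changed sign, 6 of them under this scaling, and all main values that changed sign were under 0.883 in size, those without a library included. After MI in PKM2fl/fl hearts it turned *Cd8a* to -0.038 and *Cd79a* to -0.16 (TMM -0.00052). In PKM2-/- hearts it turned *Cd8a* to 0.15 and *Nkg7* to 0.30 (DESeq2 0.072). Between genotypes after MI it turned *Cd4* to 0.20 and *Cd8a* to 0.26 (edgeR and DESeq2 0.13). limma-voom turned *Cd3g* to 0.14 after MI in PKM2fl/fl hearts, and *Nkg7* there was 0.19 with edgeR and 0.21 with DESeq2. Between genotypes after MI, *Nkg7* was -0.14 with edgeR, -0.039 with DESeq2 and -0.083 with limma-voom. The cause was not tested.

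With a library left out, 26 of 226 values changed sign (a group left with 1 library is assumed to vary like the others). For MI against sham in PKM2fl/fl hearts the ranges were -0.19 to 0.24 for *Cd3g*, -0.16 to 0.27 for *Cd8a*, -0.24 to 0.34 for *Cd79a* and -0.93 to 0.74 for *Nkg7*. In PKM2-/- hearts they were -0.90 to 0.86 for *Cd3d*, -0.67 to 0.15 for *Cd8a*, -0.061 to 0.74 for *Ms4a1*, -0.0011 to 1.45 for *Ncr1* and -0.71 to 0.42 for *Nkg7*. Between genotypes after MI they were -0.20 to 0.26 for *Cd3g*, -0.35 to 0.11 for *Cd4*, -0.38 to 0.38 for *Cd8a* and -0.68 to 0.99 for *Nkg7*. *Cd8a* between genotypes after sham ran from -0.045 to 0.75 and *Cd3e* for sham against baseline in PKM2-/- hearts from -0.52 to 1.65.

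Over all genes, calls between genotypes after MI were 71 as reported, 294 with DESeq2, 6 in the compared groups alone, 112 with total-read scaling, 146 with no fold threshold and 11 to 665 with a library left out, the last without PKM2fl/fl MI replicate 3. After sham they were 1, 118 with DESeq2, 117 with total-read scaling, 9 in the compared groups alone, 2 with no fold threshold, 0 with no filter or the block and 0 to 52 with a library left out, the last without PKM2-/- replicate 3. At baseline they were 2, 19 with DESeq2, 42 with total-read scaling, 13 in the compared groups alone, 6 with the smaller pseudocount, 1 with the block and 0 to 40, the last without PKM2-/- replicate 1. The interaction gave 0, 35 with DESeq2, 51 with total-read scaling and 0 to 220, the last without PKM2fl/fl MI replicate 3. Sham against baseline gave 34 in PKM2fl/fl hearts (249 with DESeq2, 83 with total-read scaling, 14 with limma-voom, 1 in the compared groups alone, 7 to 206 with a library left out, the last without sham replicate 3) and 568 in PKM2-/- hearts (235 in the compared groups alone, 178 with limma-voom, 1022 with no fold threshold, 237, without baseline replicate 2, to 635 with a library left out). With no fold threshold MI against sham gave 10476 and 12168 in place of 5253 and 6616. Total-read scaling moved the calls higher and lower from 2806 and 2447 to 2180 and 2983 in PKM2fl/fl and from 3431 and 3185 to 6115 and 1622 in PKM2-/- hearts.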

Other observations

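Immunoglobulin genes, which mark B cells and plasma cells, were high in 1 of the PKM2-/- MI hearts. The genes were singled out after their values were seen. In PKM2-/- MI replicate 3, *Ighm* had 669 normalized counts, against 62.4 to 210 in the other 15 hearts. *Igkc* had 454 there, 209 in PKM2fl/fl MI replicate 1 and 6.49 to 90.3 in the others. *Jchain*, which joins secreted immunoglobulin, had 57.7 and 43.3 in the same 2 hearts and 0 to 33.2 in the others, and *Cxcl13* had 89.4 in the first. *Cxcl13* also had 53.0 in PKM2fl/fl MI replicate 3, where *Igkc* was 44.8 and *Jchain* 7.32. The first heart also had the highest *Cd79a* value of the series, 33.2, and 21.6 for *Ms4a1*, the highest of the PKM2-/- hearts. The summed erythroid genes ran from 5991 to 21438 normalized counts in the PKM2-/- MI hearts, against at most 10662 in the PKM2fl/fl MI hearts. Which heart was highest is not given here, and a link to the immunoglobulin values was not tested. None of *Ighm*, *Igkc* and *Jchain* was called between MI and sham in either genotype (limma).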
